A study of Mus musculus with 8 samples.

Results

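The 10 chemokine genes Ccl2, Ccl7, Ccl5, Ccl20, Cxcl1, Cxcl2, Cxcl5, Cxcl10, Cxcl12 and Cx3cl1 were followed in cultured LLC cells, a mouse Lewis lung carcinoma line, labeled as wild-type or as knock-out for Ago2, the small RNA-binding protein of RNA silencing. They were matched by symbol to the identifiers of the deposited tables, which hold 55487 genes, and 6 of the 10 were among the 14228 genes that passed the expression filter. The RNA-seq set holds 4 libraries of wild-type cells and 4 of Ago2 knock-out cells, called ΔAgo2 here. The knock-out was made with a lentiviral CRISPR-Cas9 vector and puromycin, single cells were then sorted into clones, and the labels do not say which clone was sequenced. No such steps are described for the wild-type cells. A difference due to loss of Ago2 therefore cannot be told apart from one due to selection or clonal origin. All cells grew in DMEM with 10% fetal bovine serum of embryonic stem cell grade, with no further treatment named. The sample titles name no batch, so they do not tell whether the libraries were prepared together. The labels call the libraries of a group biological replicates but do not say that they came from separate cultures, so the p-values measure the spread between these libraries, which may be partly technical.

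Chemokines are small secreted proteins that draw cells along a gradient. CC chemokines such as Ccl2 and Ccl7 act mainly on monocytes through Ccr2, CXC chemokines such as Cxcl1, Cxcl2 and Cxcl5 act on neutrophils through Cxcr2, Cxcl10 acts on activated T cells through Cxcr3, and Cx3cl1 is made as a membrane-bound protein that proteases can shed. Tumor cells can make many of them, and their genes are classic targets of NF-κB and, for Cxcl10, of interferon signaling. The comparison of ΔAgo2 with wild-type cells asked which of these transcripts the cultured tumor cells of the 2 groups carried at different levels.

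Sequencing depth was between 40740643 and 68530912 counts per wild-type library and between 39628101 and 57595675 per ΔAgo2 library. Wild-type replicate 4 stood apart from its group, since its median Spearman correlation with the group was 0.864 where the other 3 had 0.948 to 0.961, and with 0.540% mitochondrial counts against 2.39% to 4.51% in the other 7 libraries. Its deviation from the mean of the other wild-type libraries also followed gene GC content, with a Spearman rho of 0.722. The rho was taken across genes, which are not independent replicates. Wild-type replicates 1 to 3, each set against a mean that includes replicate 4, had -0.427, -0.509 and -0.435. The ΔAgo2 libraries, set against their own group, ran from -0.157 to 0.336. The Ago2 transcript, at 303.6 ± 165 CPM (counts relative to the TMM-scaled library size; SD, n = 4) in wild-type and 351 ± 55.7 CPM (SD, n = 4) in ΔAgo2 cells, did not separate the groups, so its level does not check the labels. The study measured Ago2 protein by Western blot, which was not analysed here. Leukocyte markers were few (3 of 10 passed the filter), with Cd3e at 0 and Ptprc at no more than 2 counts in any library. Their summed level was 21.2 to 107.67 TPM in wild-type and 19.38 to 49.92 TPM in ΔAgo2 cells, led by Cd68, and their part in the chemokine levels was not tested. TPM is the authors' value scaled to gene length. Endothelial markers summed to no more than 0.77 TPM in any library, and fibroblast markers to 5.47 to 26.52 TPM in wild-type and 15.03 to 31.04 TPM in ΔAgo2 cells. The simple-epithelial keratins Krt8 and Krt18 were abundant, but Epcam had 1 count in all 8 libraries and the lung epithelial markers Nkx2-1, Sftpb and Scgb1a1 had 0 counts, so the label lung carcinoma was not borne out by lung epithelial markers.

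Ccl2 was the most abundant of the 10 transcripts in ΔAgo2 cells, and it was higher in every ΔAgo2 library than in any wild-type library. Ccl2 counts of wild-type replicates 1 to 4 were 7693, 2077, 569 and 582, and ΔAgo2 replicates 1 to 4 had 13342, 9224, 9774 and 16431. The groups did not overlap, but wild-type replicate 1 lay well above the other 3 wild-type libraries. On the TPM scale wild-type cells were at 424.41, 101.20, 25.43 and 35.23, and ΔAgo2 cells at 719.99, 699.02, 712.01 and 964.63. Wild-type cells averaged 53.1 ± 69.4 CPM of Ccl2 and ΔAgo2 cells 247 ± 43.9 CPM (SD, n = 4 each), a 4.65-fold difference of the means. The log2 fold change was 2.22 (standard error 0.77, 95% interval 0.51 to 3.92). Ccl2 did not pass the threshold over all genes (Benjamini-Hochberg adjusted p = 0.505 from the two-sided quasi-likelihood test of edgeR), although its unadjusted p was 0.0158. An exact permutation test of its CPM over the 8 libraries, two-sided, gave p = 0.02857, the smallest that 4 against 4 libraries allow.

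How large the Ccl2 difference was depended on wild-type replicate 1. The other 3 wild-type libraries averaged 18.7 ± 10.5 CPM (SD, n = 3), 13.2-fold below the ΔAgo2 mean. Without wild-type replicate 1 the log2 fold change of Ccl2 was 3.73 (standard error 0.48, adjusted p = 0.0393 in edgeR), and 0.0828% of the genes tested in that fit passed. This was the only one of 21 alternative fits in which Ccl2 passed, and its log2 fold change was above 0 in all 21, from 1.86 to 3.73. Wild-type replicate 1 was singled out for its high Ccl2. A larger difference without it was bound to follow, so that pass is not independent support.

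**Figure D1:**
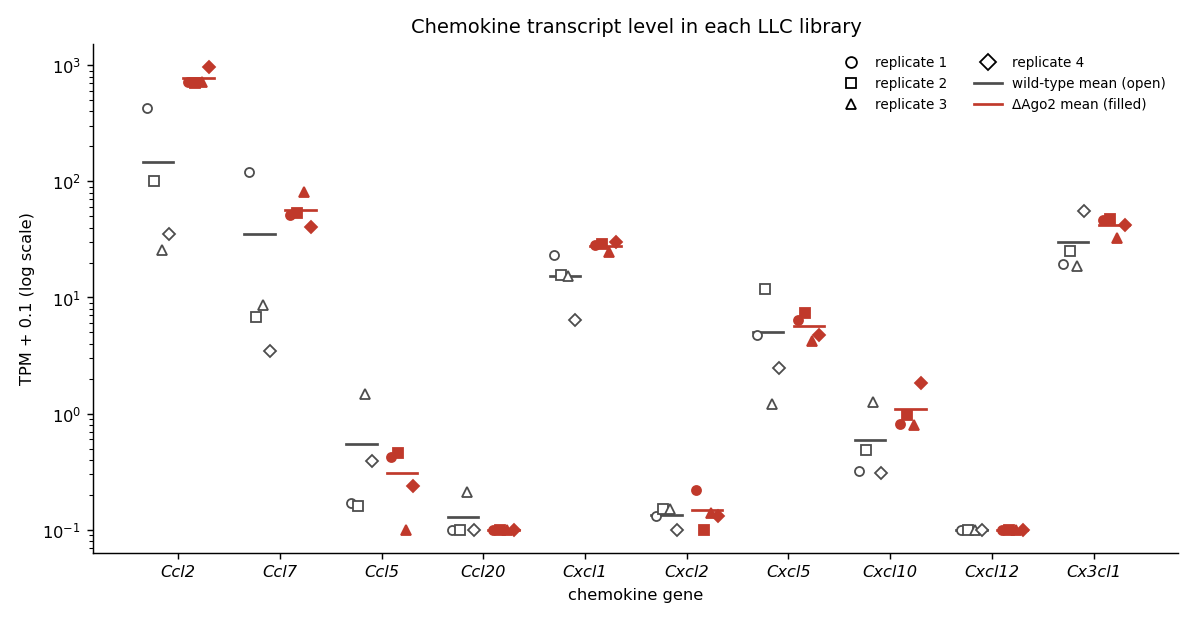
Level of each of the 10 chemokine transcripts in each library, as the authors' TPM plus 0.1 on a log axis, with wild-type libraries as open gray and ΔAgo2 libraries as filled red symbols, one symbol shape per replicate number and a bar at each group mean. The groups of Ccl2 do not overlap, wild-type replicate 1 (open circle) is the highest wild-type library for Ccl2, Ccl7 and Cxcl1, and wild-type replicate 4 (open diamond) is the highest for Cx3cl1.

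Ccl7, a close relative of Ccl2 that shares its receptor Ccr2, lies next to it. In GRCm38 (mm10), Ccl2 (ENSMUSG00000035385.5) lies on the plus strand at chr11:82035571-82037453 and Ccl7 (ENSMUSG00000035373.2) at chr11:82045712-82047525, 8258 bases further on. Wild-type replicates 1 to 4 had 1539, 96, 134 and 39 Ccl7 counts and ΔAgo2 replicates 1 to 4 had 670, 496, 782 and 484. Here the highest library of all was wild-type replicate 1, while every ΔAgo2 library was above the other 3 wild-type libraries, so the groups overlapped through that library alone. For Ccl7, wild-type cells averaged 8.96 ± 14.9 CPM and ΔAgo2 cells 12.8 ± 4.41 CPM (SD, n = 4 each), with a log2 fold change of 0.51 (standard error 0.96, adjusted p = 0.908 in edgeR). With all 8 libraries kept, its log2 fold change was 1.93 in limma-voom (adjusted p = 0.740) and 1.99 to 2.14 with limma on log2 TPM (adjusted p = 0.673 and 0.700), larger than in edgeR but not past the threshold. Without wild-type replicate 1 the wild-type mean was 1.52 ± 0.414 CPM (SD, n = 3) and the log2 fold change was 3.07 (95% interval 2.08 to 4.05), at an adjusted p of 0.0570 in edgeR, which still missed the threshold. Here too the library left out was the highest wild-type library, so a larger difference was bound to follow.

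The pair did not keep a fixed ratio. There were 4.999, 21.6, 4.25 and 14.9 Ccl2 counts for each Ccl7 count in wild-type replicates 1 to 4, and 19.9, 18.6, 12.5 and 33.9 in ΔAgo2 replicates 1 to 4. Wild-type replicates 1 and 3, the highest and the lowest in Ccl2, thus had nearly the same ratio, below that of any ΔAgo2 library. The other genes of the cluster were almost silent. Ccl11, Ccl12, Ccl8 and Ccl1, which follow Ccl7 on the chromosome, had at most 4, 1, 7 and 1 counts in any library. No run of bases longer than 23 was shared between the annotated transcripts of Ccl2 and Ccl7, against reads of 100 bases. An antisense gene over Ccl2, Gm17268, had 1 count in all 8 libraries together.

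Of the other CC chemokines, Ccl5, which attracts T cells and monocytes, and Ccl20, the ligand of Ccr6, were near the limit of detection and were not tested. In wild-type replicates 1 to 4, Ccl5 counts were 1, 1, 26 and 4, and in ΔAgo2 replicates 1 to 4 they were 5, 4, 0 and 2. More than any other library, wild-type replicate 3 held Ccl5, with 26 of its 43 counts, and it also held all 3 counts of Ccl20. Cxcl12, the ligand of Cxcr4 that stromal cells make, had 0 counts in each library. A count of 0 allows up to 3 counts, which is 0.0425 to 0.0931 CPM at these depths, and covers counting error only.

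Cxcl1, the most abundant of the neutrophil chemokines, differed little among ΔAgo2 libraries. Wild-type replicates 1 to 4 were at 14.1, 7.48, 8.39 and 5.37 CPM and ΔAgo2 replicates 1 to 4 at 13.9, 14.9, 13.7 and 15.8 CPM. Only wild-type replicate 1 reached into the ΔAgo2 range. The wild-type mean was 8.82 ± 3.71 CPM and the ΔAgo2 mean 14.6 ± 0.950 CPM (SD, n = 4 each). The log2 fold change of 0.73 (95% interval -0.016 to 1.47) did not pass (adjusted p = 0.678 in edgeR), nor did an exact permutation test over the libraries (p = 0.0857, two-sided). It was above 0 in all 21 alternatives, from 0.42 to 1.05, and past the threshold in none of them.

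Cxcl5, which also acts through Cxcr2, differed more among wild-type libraries than between the groups. Its counts were 137, 397, 41 and 64 in wild-type replicates 1 to 4 and 191, 156, 93 and 129 in ΔAgo2 replicates 1 to 4. The ΔAgo2 values lay inside the wild-type range. Its log2 fold change was 0.065 (95% interval -1.22 to 1.35, adjusted p = 0.984 in edgeR) and turned below 0 in 4 of 21 alternatives. The highest wild-type library for Cxcl5 was replicate 2, not replicate 1.

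Cxcl2 counts were 1, 2, 2 and 0 in wild-type replicates 1 to 4 and 4, 0, 1 and 1 in ΔAgo2 replicates 1 to 4, too few to be tested. Its neighbor Cxcl1 had 173 to 856 counts in the same libraries. Cxcl5 lies at chr5:90759360-90761624, Cxcl1 at chr5:90891241-90893115 and Cxcl2 at chr5:90903871-90905938 of GRCm38, all on the plus strand. Cxcl2 and Cxcl3 share a run of 110 bases, longer than a read, in annotated transcripts of 1109 and 1016 bases. Reads from that stretch alone could have been dropped or split by the counting, and Cxcl3 had 11 counts in all 8 libraries.

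The 250 bases upstream of the RefSeq starts of Cxcl1 and Cxcl2 are shown because these neighbors were counted at such different levels. Those of Cxcl10 are shown because its gene is a known target of both NF-κB and interferon. The sequences are RefSeq's for GRCm38.p6, and 6 of the 10 genes have an entry (Ccl20, Cxcl1, Cxcl2, Cxcl10, Cxcl12 and Cx3cl1). Capitals mark matches, on either strand, to the NF-κB-like letters GGAANNNCC and the interferon-response-like letters TTTCNNTTT.
Cxcl1, plus strand, chr5:90890995-90891244: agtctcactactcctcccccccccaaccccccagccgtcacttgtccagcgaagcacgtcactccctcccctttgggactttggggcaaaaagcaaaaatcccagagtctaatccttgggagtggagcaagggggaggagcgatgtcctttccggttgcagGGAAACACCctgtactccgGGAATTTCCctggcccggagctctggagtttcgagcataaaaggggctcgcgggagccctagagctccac
Cxcl2, plus strand, chr5:90903649-90903898: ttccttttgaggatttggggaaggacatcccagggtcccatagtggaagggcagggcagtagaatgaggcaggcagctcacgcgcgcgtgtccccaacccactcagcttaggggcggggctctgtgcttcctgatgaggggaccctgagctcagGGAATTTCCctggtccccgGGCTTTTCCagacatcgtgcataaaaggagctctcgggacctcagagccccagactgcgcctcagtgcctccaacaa
Cxcl10, minus strand, chr5:92348890-92349139: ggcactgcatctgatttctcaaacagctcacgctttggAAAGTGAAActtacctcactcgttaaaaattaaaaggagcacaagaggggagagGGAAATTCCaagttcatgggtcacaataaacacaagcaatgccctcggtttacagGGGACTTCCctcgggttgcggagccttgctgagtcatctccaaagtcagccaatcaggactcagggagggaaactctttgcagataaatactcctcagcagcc

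All 3 windows held 2 places with the NF-κB-like letters. Cxcl1 and Cxcl2 both held GGAATTTCC, a match to the searched letters on either strand. It lay 70 to 62 bases upstream in Cxcl1 and 96 to 88 bases upstream in Cxcl2, counted from the RefSeq starts. Their windows end at 90891244 and 90903898, past the gene starts of 90891241 and 90903871 given above, which are GENCODE's. The 2 distances therefore do not show a different position relative to those gene starts. Cxcl10 also held the interferon-response-like letters, as AAAGTGAAA at 212 to 204 bases upstream, and the AP-1-like TGAGTCA (searched as TGANTCA) at 74 to 68 bases upstream, left in lower case above. Ccl20 and Cx3cl1 each held 1 NF-κB-like place and Cxcl12 none. Of 32851 promoter windows of the same length, 15.7% held the NF-κB-like letters, 9.37% the interferon-response-like letters and 6.75% the AP-1-like letters. A match is a description of the letters.

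Many chemokine messages are short-lived because proteins such as Zfp36 bind AU-rich stretches in the 3′ UTR. The letters TATTTAT, the core of such stretches, were searched in the 3′ UTR of 1 annotated transcript for each gene. Cxcl1 held them at 6 places in 592 bases and Cxcl2 at 7 in 734 bases, Cxcl5, Ccl20, Cxcl12 and Cx3cl1 held them once, and Ccl2, Ccl7, Ccl5 and Cxcl10 did not hold them. The densest stretch of Cxcl1 and that of Cxcl2 are shown, with capitals from the first to the last core of the stretch, which in Cxcl1 include a G that belongs to no core.
Cxcl1, plus strand, chr5:90892607-90892635: tccTATTTATTTATGTATTTATTTATtcc
Cxcl2, plus strand, chr5:90905336-90905364: atctatgTATTTATTTATTTATtaattcc

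The letters were in the 3′ UTR of 27.9% of 11916 tested genes, and of 16.8% of the 5336 whose 3′ UTR had 200 to 1200 bases. Ccl2, whose 3′ UTR of 275 bases does not hold the letters, and Cxcl1, which holds them at 6 places, both had a log2 fold change above 0. So did all 6 tested members, and none of them passed, so the direction says nothing about the letters.

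Cxcl10, the interferon-inducible member, was counted at low levels. The counts were 8, 16, 51 and 7 in wild-type replicates 1 to 4 and 26, 23, 19 and 58 in ΔAgo2 replicates 1 to 4. Wild-type replicate 3 alone brought the wild-type group into the ΔAgo2 range. The log2 difference was 0.87 (standard error 0.59, adjusted p = 0.744 in edgeR), and without wild-type replicate 3 it was 1.64 (adjusted p = 0.361 in edgeR). Replicate 3 was the highest wild-type library, so a larger difference without it was bound to follow. Cxcl10 lies on the minus strand at chr5:92346638-92348889, inside the span of Art3, an ADP-ribosyltransferase gene on the plus strand. Art3 counts were 133, 12, 220 and 24 in wild-type replicates 1 to 4 and 570, 401, 454 and 475 in ΔAgo2 replicates 1 to 4, groups that did not overlap (log2 fold change 2.49, adjusted p = 0.331 in edgeR). The library kit kept strand, but the strand setting of the counting is not given in the sources used here. Without strand, reads could be ambiguous only where exons of Cxcl10 and Art3 overlap, and exon overlap was not examined. Neither neighbor of Cxcl10, Cxcl9 nor Cxcl11, had more than 2 counts in a library.

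Cx3cl1 was abundant in all 8 libraries, and its comparison turned on wild-type replicate 4. Wild-type replicates 1 to 4 were at 24.8, 25.0, 21.4 and 99.0 CPM, and ΔAgo2 replicates 1 to 4 at 48.8, 51.0, 37.7 and 46.4 CPM. Every ΔAgo2 library was above wild-type replicates 1 to 3 and below wild-type replicate 4. With all libraries the log2 fold change was 0.11 (95% interval -0.96 to 1.19, adjusted p = 0.963 in edgeR), and it turned below 0 when wild-type replicate 1, 2 or 3 was left out. Without wild-type replicate 4 the wild-type mean was 23.7 ± 2.03 CPM (SD, n = 3), the log2 fold change was 0.96 (95% interval 0.59 to 1.33) and Cx3cl1 passed (adjusted p = 0.0388 in edgeR), as did 0.777% of the genes tested in that fit. Replicate 4 was the highest library in Cx3cl1, so a larger difference without it was bound to follow and is not independent support. With sample weights in limma-voom, where 1.81% of the genes passed, the log2 fold change was 0.95 (adjusted p = 0.0465). Such weights give less say to libraries that deviate, as replicate 4 did, and the weights themselves were not examined. That pass is therefore not independent of the fit without replicate 4. At 57.1% GC, its transcript was the richest in GC of the 6 tested members, against a median of 49.6% over tested genes. After a correction of each library for gene GC content, with all 8 libraries kept, its log2 fold change was 0.70 (95% interval 0.22 to 1.18, adjusted p = 0.286 in edgeR).

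**Figure D2:**
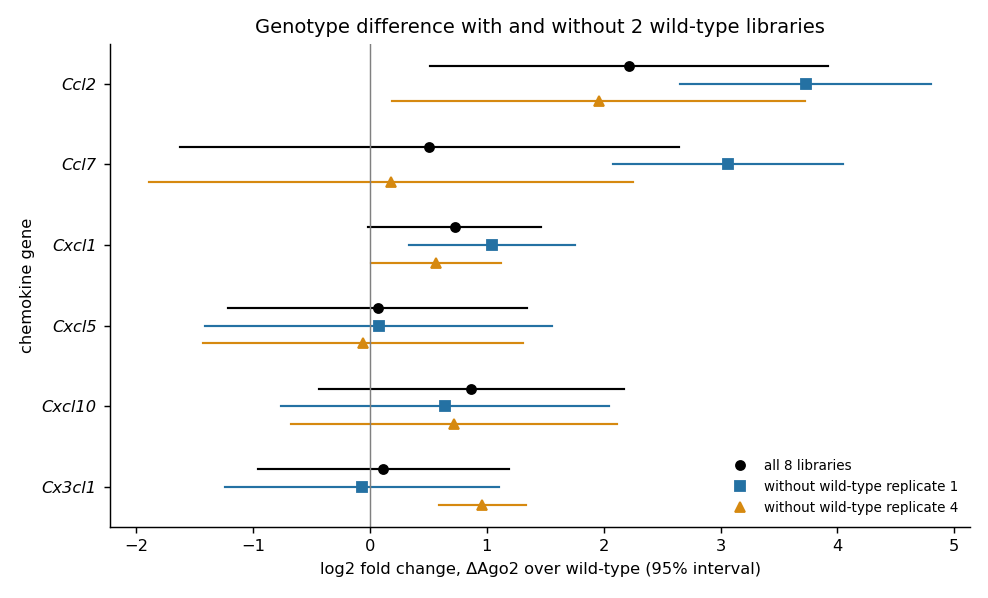
Log2 fold change of ΔAgo2 over wild-type cells for the 6 tested chemokine genes, with 95% intervals from edgeR's quasi-likelihood test, with all 8 libraries (black circles), without wild-type replicate 1 (blue squares) and without wild-type replicate 4 (orange triangles). Leaving out replicate 1 moved Ccl2 from 2.22 to 3.73 and Ccl7 from 0.51 to 3.07, and leaving out replicate 4 moved Cx3cl1 from 0.11 to 0.96. In each case the library left out was the highest wild-type library for that gene.

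Over the 10 genes, 0 passed an adjusted p of 0.05 in edgeR, beside 0.295% of the 14228 genes tested. At an unadjusted p under 0.05, 1 of the 6 tested members (Ccl2) was higher in ΔAgo2 cells and 0 were lower, against 2.72% of all tested genes higher and 4.62% lower. All 4 ΔAgo2 libraries were above all 4 wild-type libraries for 1 member (Ccl2) and for 3.09% of tested genes, and below them for 0 members and 2.98% of tested genes. The log2 fold change was above 0 for 6 of the 6 tested members with all libraries, though Cxcl5 and Cx3cl1 turned below 0 in some alternatives. Its median was 0.62 over those 6, beside -0.11 over all genes tested. With DESeq2, which tested more low genes, 0 members passed, beside 2.23% of the genes it adjusted. DESeq2 gave no p-value for Ccl7, which was thus not tested there, and put Ccl2 at an adjusted p of 0.0641. With limma-voom 0 passed, and 1 (Cx3cl1) once sample weights were added.

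Ccl2 was the largest share of the summed chemokine TPM in 7 libraries, and Cx3cl1 in wild-type replicate 4. The summed TPM of the 10 genes was 592.64, 160.63, 71.71 and 103.69 in wild-type replicates 1 to 4 and 853.7, 836.92, 855.06 and 1082.91 in ΔAgo2 replicates 1 to 4. The sum did not overlap between the groups. Ccl2, which itself did not overlap, made up most of the sum in ΔAgo2 cells, so this mainly restates the Ccl2 result and does not show that the other members rose. Ccl2 made up 71.6%, 63.0%, 35.5% and 34.0% of that sum in wild-type replicates 1 to 4, against 83.3% to 89.1% in ΔAgo2 cells. Cx3cl1 made up 53.9% of it in wild-type replicate 4. In CPM, which is not scaled to length and so gives the long Cx3cl1 transcript more weight, Cx3cl1 was also the larger share in wild-type replicate 3 (50.8% against 20.1% for Ccl2) and held the larger mean share of wild-type cells (44.1% ± 28.3 against 36.3% ± 24.5; SD, n = 4), while ΔAgo2 cells were at 75.9% ± 3.51 for Ccl2 and 14.4% ± 2.72 for Cx3cl1 (SD, n = 4). In bulk samples, fewer cells that make a transcript and less of it per cell cannot be told apart.

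**Figure D3:**
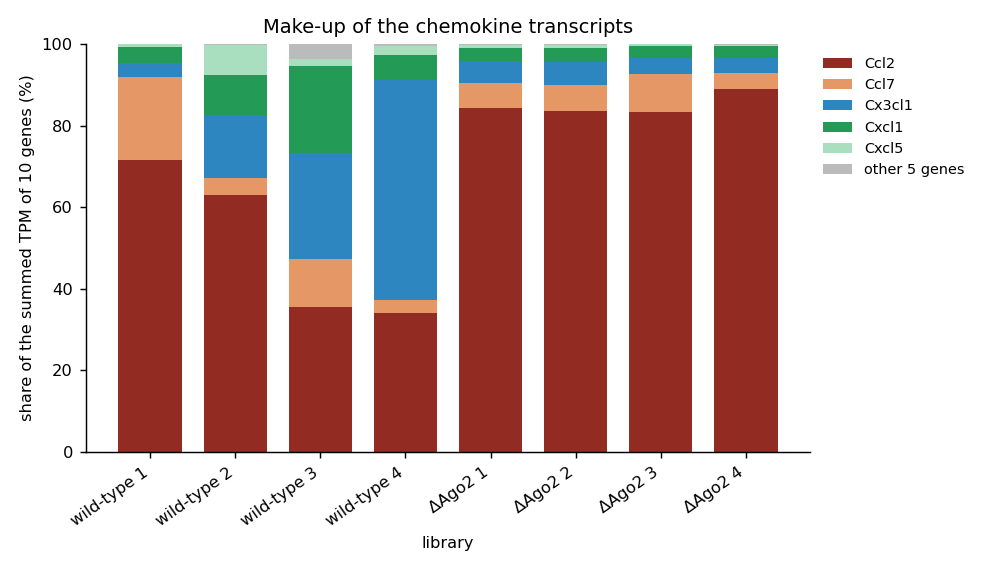
Share of each chemokine transcript in the summed TPM of the 10 genes, in percent, for each of the 8 libraries, with the 5 least abundant genes drawn as 1 gray segment. Ccl2 held 83.3% to 89.1% of the sum in the 4 ΔAgo2 libraries and 34.0% to 71.6% in the 4 wild-type libraries.

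On the TPM scale the order of levels in ΔAgo2 cells was Ccl2 (774 ± 127), Ccl7 (56.5 ± 17.3), Cx3cl1 (42.03 ± 6.84), Cxcl1 (27.9 ± 2.18), Cxcl5 (5.57 ± 1.44) and Cxcl10 (1.00 ± 0.485; all SD, n = 4). The ranges of Ccl7 and Cx3cl1 overlapped, while each other pair of neighbors in that order was separated. In ΔAgo2 replicate 4, Cx3cl1 was the higher of these 2 (41.67 against 40.37 TPM), so their order was not fixed. In wild-type cells the order of the means was Ccl2 (147 ± 188), Ccl7 (34.8 ± 57.3), Cx3cl1 (29.7 ± 17.7), Cxcl1 (15.1 ± 6.86), Cxcl5 (4.98 ± 4.78) and Cxcl10 (0.493 ± 0.446; all SD, n = 4). There the ranges of all neighbors in that order overlapped. Within each wild-type library, however, Ccl2 was above Ccl7 and Cxcl1 above Cxcl5. Ccl7 was above Cx3cl1 only in wild-type replicate 1 (120.63 against 19.52 TPM), so that step of the order rests on this library. Cxcl1 was above Cx3cl1 in wild-type replicate 1, and Cxcl10 just above Cxcl5 in wild-type replicate 3.

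The wild-type libraries differed from each other in which chemokine was high. Replicate 1 was the highest wild-type library in Ccl2, Ccl7 and Cxcl1, replicate 2 in Cxcl5, replicate 3 in Cxcl10, Ccl5 and Ccl20, and replicate 4 in Cx3cl1. The SD of log2 CPM was 1.78 for Ccl2 and 2.20 for Ccl7 in wild-type cells, larger than for 95.3% and 98.7% of tested genes, and 0.241 and 0.455 in ΔAgo2 cells. The wider spread of wild-type libraries was general, since the median SD over all tested genes was 0.783 in wild-type and 0.234 in ΔAgo2 cells.

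**Figure D4:**
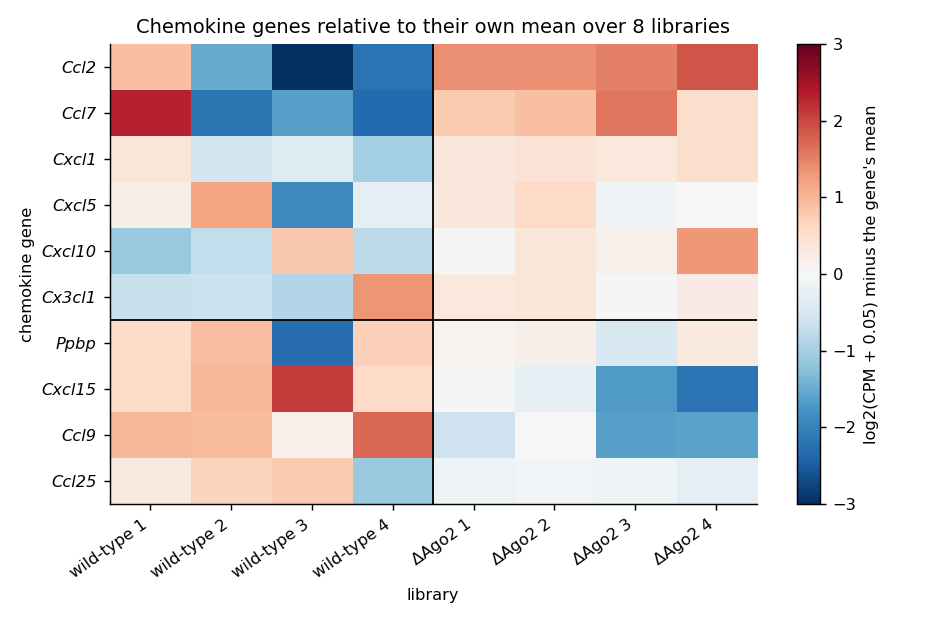
Level of 10 chemokine genes in each library as log2(CPM + 0.05) minus the gene's own mean over the 8 libraries, red above and blue below that mean, with the color range ending at 3 in either direction; the upper 6 genes are the tested members and the lower 4 are other ligands. Ccl2 is above its mean in wild-type replicate 1 and all 4 ΔAgo2 libraries, and Cxcl15 and Ccl9 show their lowest values in ΔAgo2 replicates 3 and 4.

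The genes whose profile over the 8 libraries was most like that of Ccl2 were Gm48558, Prkcb, Gm6650, AC112949.1 and Gm42793. Likeness was the root mean square difference between log2 CPM profiles, each centered on its own mean, and was 0.39 for Gm48558 and 0.59 for the protein kinase C gene Prkcb, beside a median of 1.95 over 14227 genes. Among members, Ccl7 was nearest at 0.98, with 41 other genes nearer, and Cxcl1 followed at 1.43.

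Of 28 other chemokine ligands, 7 passed the expression filter and 0 passed an adjusted p of 0.05 in edgeR. At an unadjusted p under 0.05, 2 were lower and 0 higher in ΔAgo2 cells, beside 4.62% and 2.72% of all tested genes. The 2 lower ligands were Ccl9, a monocyte chemokine whose gene lies in the cluster of Ccl5, and Cxcl15, a lung neutrophil chemokine whose gene lies between Cxcl5 and Cxcl1. Ccl9 counts were 35, 48, 25 and 39 in wild-type replicates 1 to 4 and 12, 14, 3 and 4 in ΔAgo2 replicates 1 to 4 (log2 fold change -2.11, standard error 0.60, adjusted p = 0.318 in edgeR). For Cxcl15 they were 21, 42, 89 and 14 in wild-type replicates 1 to 4 and 16, 9, 2 and 1 in ΔAgo2 replicates 1 to 4 (log2 fold change -2.33, standard error 0.73, adjusted p = 0.414 in edgeR). In CPM neither overlapped between the groups, and both were lower in ΔAgo2 cells, opposite to Ccl2. All ΔAgo2 libraries were below all wild-type libraries for 2.98% of all tested genes. With DESeq2, Ccl9 passed (adjusted p = 0.0293) and so did Cxcl13 (adjusted p = 0.0344), beside 2.23% of the genes it adjusted. Cxcl13, a B-cell chemokine named after its values were seen, had 2, 2, 18 and 7 counts in the wild-type libraries and 0 in each ΔAgo2 library.

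The most abundant other ligands were Ppbp and Ccl25, at means of 3.32 and 3.26 TPM over the 8 libraries. Neither passed, with log2 fold changes of -0.34 for Ppbp (adjusted p = 0.905 in edgeR) and -0.48 for Ccl25 (adjusted p = 0.784 in edgeR). The median log2 fold change of the 7 tested ligands was -0.34.

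Chemokine receptors were nearly absent from these cells. Of 23 genes, 2 passed the expression filter and 0 passed the test. These were the scavenging receptor Ackr3, at 3.97 ± 3.47 and 4.52 ± 2.39 CPM in wild-type and ΔAgo2 cells (SD, n = 4), and Ccrl2, at 0.296 ± 0.183 and 0.231 ± 0.225 CPM (SD, n = 4). Ccr2, the receptor of Ccl2 and Ccl7, had at most 1 count in a library, Cxcr2 at most 5 and Cxcr3 at most 5, while Cx3cr1, the receptor of Cx3cl1, reached 112 counts in 1 library without passing the filter.

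The proteases that shed Cx3cl1 were expressed in the same cells. Adam10 counts were 8571, 10102, 15056 and 944 in wild-type replicates 1 to 4 and 15272, 8765, 10094 and 14964 in ΔAgo2 replicates 1 to 4, with a log2 fold change of 0.79 (adjusted p = 0.740 in edgeR). Adam17 had a log2 fold change of 0.35 (adjusted p = 0.854 in edgeR). Wild-type replicate 4, the highest library in Cx3cl1, was the lowest in both. It was also the library whose deviation followed gene GC content most strongly. The transcripts had 42.1% GC for Adam10, 45.1% for Adam17 and 57.1% for Cx3cl1. The cause was not tested.

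Of 13 inducing cytokines and their receptors, 6 receptor genes passed the filter and 0 passed the test, while Il1a, Il1b, Tnf, Il6, Ifnb1, Ifng and Il17a had at most 3 counts in any library. Tnfrsf1a, the main TNF receptor, had a log2 fold change of -0.20 (adjusted p = 0.890 in edgeR) and Il1r1, the IL-1 receptor, of 0.08 (adjusted p = 0.963 in edgeR). All 16 transcription regulators of the NF-κB, IRF, STAT, AP-1, C/EBP and hypoxia families were tested and 0 passed, with 9 log2 fold changes above and 7 below 0 and a median of 0.06. The most abundant were Cebpb, with a log2 fold change of -0.05 (adjusted p = 0.981 in edgeR), and Jun, with 0.35 (adjusted p = 0.797 in edgeR). All 7 regulators of message decay were tested and 0 passed, with a median of 0.09, led in level by Zfp36l2 (log2 fold change 0.47, adjusted p = 0.756 in edgeR) and Khsrp (-0.07, adjusted p = 0.963 in edgeR). None of these regulators and cytokine receptors reached an unadjusted p under 0.05 in either direction.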

How the data were processed

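Total RNA of cultured cells was made into stranded mRNA libraries and sequenced in paired 100-base reads. The authors aligned reads to ribosomal RNA and then to mm10 (STAR, per the submitters' processing notes), and deposited whole-number counts per gene from featureCounts and TPM values. The annotation release and strand setting are not given in the sources used here. Names, positions and transcripts came from GENCODE M21 (GRCm38), and 93 of 55487 identifiers had no match.

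Counts were filtered with filterByExpr, scaled with TMM and tested with edgeR 4.0.16 in R 4.3.3 (genotype only, two-sided, Benjamini-Hochberg over 14228 genes, threshold 0.05). Permutation tests on CPM were exact, and log2 CPM for spread and profiles had a prior count of 2. limma 3.58.1 and DESeq2 1.42.0 served as alternatives, besides other scalings and filters, a GC correction, a replicate block, TPM and each library left out. The code was tested on simulated data. All 10 members were named, with the tested genes of each other list that had an unadjusted p under 0.05 or the 2 highest mean TPM, ligands between members, and the 5 nearest profiles to Ccl2. The members and lists were chosen with earlier results of these data known.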

Additional observations from a re-analysis of the deposited data

Results flagged for a closer look

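In 3 of 40 groups of 4 libraries examined, 1 library lay apart, where the gap to its nearest neighbor divided by the range exceeded Dixon's 95% critical value. Chance marks about 1 in 20 such groups. Ccl7 in wild-type cells had a ratio of 0.849, with replicate 1 the highest at 31.3 CPM against 1.21 to 1.99 CPM in the other 3. Cx3cl1 in wild-type cells had a ratio of 0.899, with replicate 4 the highest at 99.0 CPM. Ppbp in wild-type cells, a platelet chemokine gene next to Cxcl5, had a ratio of 0.891, with replicate 3 the lowest at 10 counts against 49 to 126 in the other 3. Each of the 3 came from a different wild-type library.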

How the results depend on the processing

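The number of members past an adjusted p of 0.05 was 0, and it became 1 with sample weights in limma-voom (Cx3cl1), and it ran from 0 to 1 when 1 library was left out, with 1 without wild-type replicate 1 (Ccl2) and 1 without wild-type replicate 4 (Cx3cl1). In either of those fits the library left out was the highest wild-type library for the gene that passed. Ccl2 ranged from 1.86 to 3.73 with 1 library left out, and was past the threshold (3.73, adjusted p = 0.0393 in edgeR) without wild-type replicate 1 alone, where adjusted p over all 21 alternatives ran from 0.0393 to 0.860. Other ligands called were 0, and 2 with DESeq2, beside 2.23% of the genes DESeq2 adjusted, while receptors and regulators called were 0 in every alternative. Cxcl5 ranged from -0.27 to 0.68 with 1 library left out, and turned below 0 with the GC correction (-0.30), without wild-type replicate 3 (-0.27) or 4 (-0.059) and without ΔAgo2 replicate 2 (-0.073). Cx3cl1 ranged from -0.10 to 0.96, and was below 0 without wild-type replicate 1 (-0.070), 2 (-0.093) or 3 (-0.10). The cause was not tested. Ccl7 was above 0 in 20 of 20 alternatives, from 0.15 to 3.07, and past the threshold in 0 of them (adjusted p from 0.0570 to 0.984). DESeq2 gave no p-value for Ccl7, so that gene was not tested there.

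Over all genes, 42 passed, against 399 with DESeq2, 257 with sample weights, 143 without a filter, 66 with the GC correction and 15 on log2(TPM + 1). With 1 library left out the number ran from 1 to 113, with 12, 78 and 113 without wild-type replicates 1, 2 and 4, and with 1 without ΔAgo2 replicate 1 and 7 without replicate 2, 3 or 4. The median log2 fold change of all tested genes was 0.15 on log2(TPM + 1) and 0.22 on log2(TPM + 0.1), where Ccl2 was at 3.26 and 3.28.

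In a fit with a replicate block, 18 genes passed, 17 of them among the 42, Ccl2 was at 3.17 (adjusted p = 0.230 in edgeR) and Ccl7 at 2.22 (adjusted p = 0.754 in edgeR), or at 1.84 with the GC correction added (adjusted p = 0.556 in edgeR). The deviations of same-numbered libraries had correlations of -0.138, -0.0491, 0.384 and 0.0278 across genes, with a mean of 0.0563. Libraries of different numbers had a mean of -0.0231. Whether same-numbered libraries share a culture or a preparation was not tested.

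Members with few counts (Ccl5, Ccl20, Cxcl2, Cxcl12) could not be compared at this depth.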
